A study of Mus musculus with 12 samples.

Results

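Interferon response genes are the receptors, signal carriers and effector proteins by which a cell senses interferon and resists virus. The set here held 35 genes of the mouse, taken as a written list of textbook members of the pathway, and each gene was read from the probe set with a single gene symbol that had the highest mean over all 12 arrays. Of the 35 genes, 32 were measured in this way, among 19937 genes in all. Isg15 and Gbp2 had only probe sets that carry a second gene's symbol as well, and Ifi44 had no entry in the probe table used here, so these 3 genes have no value. The 32 were 4 receptor chains, 7 transcription factors, 6 RNA sensors and RNA-directed enzymes, 4 genes of ISG15 conjugation and of signal control, 8 antiviral effectors and the 3 IFITM membrane proteins.

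The cells came from mouse fetal liver at E14.5, with no strain, genotype or treatment named in the labels, and each population was measured on 4 arrays. HSPC, labelled as hematopoietic stem cells, were sorted on Sca1 after removal of lineage-positive cells. ERY were erythroblasts taken fresh from the liver with beads against Ter119, while MEG were megakaryocytes grown in culture, from KIT-positive progenitors and selected with beads against CD41. Lineage and culture therefore cannot be told apart in any comparison with MEG. The arrays were described as biological replicates, and nothing in the labels tied one to a litter or an animal, so P-values measure only the spread between these arrays.

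In type I interferon signalling, IFNAR1 and IFNAR2 pass the signal through JAK1 and TYK2 to a complex that includes STAT2 and IRF9 and binds the interferon-stimulated response element (ISRE) in target promoters. Interferon gamma acts through IFNGR1 and IFNGR2 with JAK1 and JAK2, and leads to binding at the gamma-activated site (GAS). Double-stranded RNA can raise many of the same targets through the sensors RIG-I and MDA5, the latter encoded by Ifih1. Some of these genes, those of the IFITM family among them, are also expressed in stem cells without added interferon, and interferon is known to push resting hematopoietic stem cells into cycle.

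RefSeq promoter windows, of 250 bases before and 50 after the start site on the GRCm38.p6 build, were at hand for 30 of the 35 genes and not for Oas2, Usp18, Parp14, Mx1 and Mx2. The ISRE core was searched on both strands as GAAA, any 2 bases and GAAA (TTTC, any 2 bases and TTTC on the other strand), and 13 of the 30 genes (43.3%) held a match against 3.99% of 27025 genes with a window. The GAS core, TTC and GAA with any 3 bases between them, was found in 12 of the 30 (40.0%) against 9.55% of genes, and in Bst2 and Ifitm3 a GAS match overlapped an ISRE match. A match says that the letters are present, not that a factor binds there. The 4 stretches below are the 250 bases before the start site of 4 genes that hold an ISRE match there, with matches in capitals. Not every gene of the patterns described later held one: Ifit2, Isg20 and Ifitm1 had no ISRE match in their windows, and Usp18 had no window. The stretches are those of Ifit1 (chr19:34640639-34640888, plus strand) and Ifit3 (chr19:34583279-34583528, plus strand), which were high in MEG, Rsad2 (chr12:26456453-26456702, minus strand), which was high in ERY, and Ifitm2 (chr7:140955962-140956211, minus strand), which was low in ERY.
Ifit1: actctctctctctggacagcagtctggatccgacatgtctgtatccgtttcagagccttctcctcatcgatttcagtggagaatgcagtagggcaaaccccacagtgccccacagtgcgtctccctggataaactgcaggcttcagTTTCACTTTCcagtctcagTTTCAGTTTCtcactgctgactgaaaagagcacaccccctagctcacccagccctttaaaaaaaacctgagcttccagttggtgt
Ifit3: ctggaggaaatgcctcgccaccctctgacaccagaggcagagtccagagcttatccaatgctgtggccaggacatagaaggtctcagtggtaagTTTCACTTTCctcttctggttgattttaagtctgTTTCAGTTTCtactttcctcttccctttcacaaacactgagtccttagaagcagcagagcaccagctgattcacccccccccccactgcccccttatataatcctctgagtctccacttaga
Rsad2: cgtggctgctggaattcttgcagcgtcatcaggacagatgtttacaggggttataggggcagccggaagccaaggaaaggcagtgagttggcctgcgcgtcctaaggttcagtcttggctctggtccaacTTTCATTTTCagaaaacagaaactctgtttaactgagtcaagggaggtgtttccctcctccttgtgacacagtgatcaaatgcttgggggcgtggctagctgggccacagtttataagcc
Ifitm2: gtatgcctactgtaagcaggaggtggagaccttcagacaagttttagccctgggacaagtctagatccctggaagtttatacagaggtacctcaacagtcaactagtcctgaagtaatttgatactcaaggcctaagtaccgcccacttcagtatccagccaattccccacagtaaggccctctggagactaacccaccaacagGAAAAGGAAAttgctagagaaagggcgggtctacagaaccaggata
In Ifit1 the matches began 104 and 85 bases before the start site, and in Ifit3 they began 156 and 122 bases before it. Rsad2 had 1 match, 120 bases before its start, and Ifitm2 had 1, 46 bases before it.

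Signals are on the log2 scale, where a step of 1 doubles the signal. A gene was called higher or lower where it differed by more than 2-fold at a false discovery rate of 5% (limma, Benjamini-Hochberg adjustment over all 19937 genes). A value of 5.93, the 95th percentile of 1015 olfactory receptor genes, which these cells are not known to use, served as the background limit for reading a low level. By mean over all arrays, 29 of the 32 genes lay above it and Mx1, Mx2 and Ifit3 below. By population, 26 lay above it in HSPC, 30 in MEG and 27 in ERY.

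The HSPC arrays differed from one another mainly along a single axis, which held 91.0% of their variance over all genes and set arrays 1 and 2 apart from arrays 3 and 4. In 27 of the 32 interferon response genes (84.4%) arrays 1 and 2 lay both above or both below arrays 3 and 4, as they did in 85.0% of the 12102 genes above the background limit, a near equal share. Arrays 1 and 4 lay outermost: among the genes above the limit array 1 was the lowest in 46.4% and the highest in 35.4%, and array 4 in 33.9% and 39.4%. Markers of each population and of other cells were both measured. The summed level of the HSPC markers was 12.77 to 13.27 in HSPC, 11.94 to 12.57 in MEG and 8.75 to 8.92 in ERY. Single HSPC markers did not all follow that sum in MEG. Of 7 measured, 5 were called lower there than in HSPC and 1, Meis1, higher, with a median difference of -2.02. The summed level of the megakaryocyte markers was 15.64 to 15.70 on the MEG arrays against at most 12.79 elsewhere, and that of the erythroid markers was 15.31 to 15.38 in ERY against at most 11.34 elsewhere. Neutrophil and monocyte markers were highest in HSPC (14.07 to 14.47), 9.83 to 10.29 in ERY and uneven in MEG (9.53 to 12.59), and hepatocyte markers reached 14.64 to 15.35 in ERY, 12.77 to 14.37 in HSPC and 9.99 to 11.14 in MEG. In such bulk RNA, fewer cells of a type and less RNA per cell cannot be told apart.

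Groups of genes shared a pattern: the IFIT genes and Usp18 were high in MEG alone, the IFITM family was high in HSPC and MEG and low in ERY, and Rsad2 and Isg20 were low in HSPC and high in both differentiated populations. The highest mean of the 3 populations lay in MEG for 17 genes, in HSPC for 12 and in ERY for 3. Between MEG and HSPC, 8 genes were called higher in MEG (Ifih1, Eif2ak2, Usp18, Ifit1, Ifit2, Ifit3, Rsad2 and Isg20) and 3 lower (Irf1, Irf5 and Ifi35), or 34.4% of the 32, where 20.2% of all genes were called (8.77% higher and 11.4% lower). Their median difference was 0.37, against -0.02 over all genes.

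ERY showed the opposite balance against HSPC, with more genes called lower than higher, as was also so among all genes. Only Rsad2 and Isg20 were called higher in ERY, and 8 genes were called lower (Ifngr1, Ifngr2, Irf1, Irf5, Bst2, Ifitm1, Ifitm2 and Ifitm3), which is 31.2% of the 32 where 20.6% of all genes were called (8.35% higher and 12.3% lower). The median difference was -0.40, against 0.03 over all genes. Between MEG and ERY, 11 genes were called higher in MEG and 1, Rsad2, was called lower, or 37.5% where 16.5% of all genes were called (8.75% higher and 7.77% lower), and 27 of the 32 differences were above 0 with a median of 0.92 (-0.02 over all genes). The comparisons share populations and are not independent of one another. Most interferon response genes lay above the background limit, and among the 12102 genes above it the called shares were nearer to those of the set, at 31.7% between MEG and HSPC (13.6% higher and 18.1% lower), 33.1% between ERY and HSPC (13.5% higher and 19.6% lower) and 26.1% between MEG and ERY (14% higher and 12.1% lower). The 31.2% of the set called between ERY and HSPC was thus no larger than the share of such genes. The 4 arrays of one population lay wholly apart from the 4 of the other in 13 of the 32 genes between MEG and HSPC (29.4% of all genes), in 18 between ERY and HSPC (37.3%) and in 19 between MEG and ERY (32.9%). These shares of arrays lying apart are over all genes and not over those above the background limit, so they are not on a like basis with the set.

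**Figure D1:**
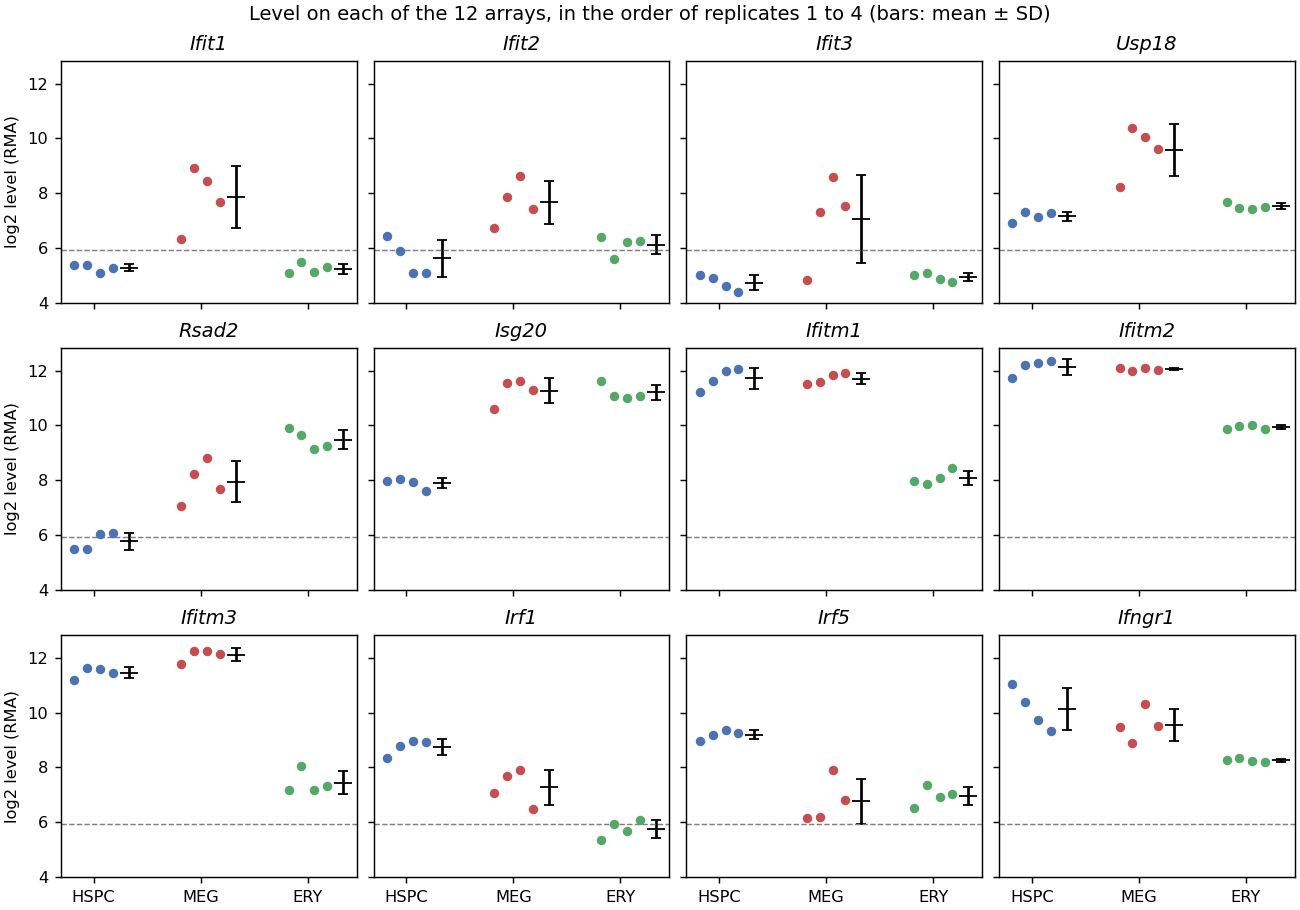
Level of 12 of the called genes on each of the 12 arrays (vertical axis, log2 RMA level), with the 4 arrays of HSPC, MEG and ERY as points in the order of their replicate numbers, bars for mean ± SD and a dashed line at the background limit of 5.93. Ifitm1, Ifitm2 and Ifitm3 are low on all 4 ERY arrays, Rsad2 and Isg20 are low on all 4 HSPC arrays, and Ifit1, Ifit3 and Usp18 are highest on MEG arrays 2, 3 and 4.

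The receptors were present in all 3 populations, and none of the 4 chains was called different between MEG and HSPC. Ifnar1 ranged from 8.27 to 9.55 over the 12 arrays and Ifnar2, its partner, from 9.30 to 10.79, and neither passed 2-fold in any comparison. Ifnar2 was lower in MEG than in HSPC by 0.80 ± 0.18 (SE, adjusted P = 0.0045) without reaching it. Without HSPC arrays 3 and 4, Ifngr1 was called lower in MEG than in HSPC (-1.18, adjusted P = 0.0231). The chains for interferon gamma were the ones called lower in ERY.

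Ifngr1, which binds interferon gamma, read 11.06, 10.40, 9.74 and 9.31 on the HSPC arrays, 9.46, 8.88, 10.32 and 9.51 in MEG and 8.27, 8.34, 8.21 and 8.20 in ERY. All ERY arrays lay close together and below every other array. The difference from HSPC was -1.87 ± 0.35 (adjusted P = 0.00113), and MEG was above ERY by 1.29 ± 0.35 (adjusted P = 0.0151; 0.94 and not called without MEG arrays 1 and 3). Ifngr2, the second chain, read 11.02, 10.71, 10.07 and 9.92 in HSPC, 9.72, 9.89, 10.59 and 9.78 in MEG and 9.12, 9.62, 9.21 and 9.24 in ERY. It was lower in ERY than in HSPC by 1.13 ± 0.26 (adjusted P = 0.00455), but the difference was -0.94 without HSPC replicate 1 and -0.70 without HSPC arrays 1 and 2, inside 2-fold in both cases. In the genome Ifnar2, Ifnar1 and Ifngr2 lie in 1 cluster, with Il10rb between the first pair as the only other protein-coding gene.

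Of the 7 transcription factors, Irf1 and Irf5 were called, both with their highest level in HSPC. Irf1, an activator that interferon gamma induces, read 8.34, 8.77, 8.97 and 8.92 in HSPC, 7.05, 7.68, 7.89 and 6.47 in MEG and 5.33, 5.94, 5.67 and 6.07 in ERY. The 3 populations did not overlap, with MEG in the middle. MEG differed from HSPC by -1.48 ± 0.29 (adjusted P = 0.00155), ERY from HSPC by -3.00 ± 0.29 (adjusted P = 5.6e-06), and MEG from ERY by 1.52 ± 0.29 (adjusted P = 0.00134). The ERY mean of 5.75 was below the background limit, and with low values raised to it ERY differed from HSPC by -2.79 and from MEG by 1.31, both still called. A second probe set for Irf1 stayed near the background limit, at 6.05, 6.01 and 6.01 in HSPC, MEG and ERY, and in the mean of the pair both differences of MEG fell within 2-fold (-0.76 and 0.76) while that of ERY from HSPC kept its call (-1.52).

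Irf5, which acts downstream of Toll-like receptors and is best known in myeloid and B cells, read 8.97, 9.17, 9.35 and 9.25 in HSPC, 6.15, 6.19, 7.91 and 6.79 in MEG and 6.51, 7.34, 6.91 and 7.03 in ERY. It was lower than in HSPC by 2.43 ± 0.33 in MEG (adjusted P = 0.00013) and by 2.23 ± 0.33 in ERY (adjusted P = 0.00019). MEG array 3, which had the highest Irf5 level of the MEG arrays, also had the highest neutrophil and monocyte marker level of them, and the part of such cells in the level was not tested.

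The other factors of the set did not pass the call. Irf2, which can repress interferon targets, had means of 9.0 in HSPC, 9.96 in MEG and 9.0 in ERY, and stopped just inside 2-fold at 0.97 ± 0.25 above HSPC (adjusted P = 0.0099). Stat2 and Irf9, parts of the complex that binds the ISRE, ranged from 7.18 to 8.56 and from 7.57 to 8.76 over the 12 arrays. Irf3, activated downstream of the RNA sensors, was 0.95 ± 0.19 lower in ERY than in HSPC (adjusted P = 0.00165), again inside 2-fold. Irf7, the amplifier of the type I response, read 6.24, 7.34, 8.52 and 7.18 in MEG against 6.40 to 6.91 in HSPC and 6.02 to 6.65 in ERY, so that MEG array 1 lay within the other populations and array 3 far above them (MEG against HSPC 0.65 ± 0.36, adjusted P = 0.19).

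Among the RNA sensors, Ifih1 and Eif2ak2 were called higher in MEG than in HSPC, and neither was called between ERY and HSPC. Ifih1, which encodes the sensor MDA5, read 6.82, 6.08, 5.73 and 5.83 in HSPC, 7.22, 7.65, 8.06 and 6.98 in MEG and 6.95, 6.85, 7.07 and 6.95 in ERY. All MEG arrays lay above all HSPC arrays (1.36 ± 0.26, adjusted P = 0.00133), and ERY lay above HSPC by 0.84 ± 0.26 (adjusted P = 0.0235, inside 2-fold).

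Eif2ak2, the kinase PKR that halts translation on double-stranded RNA, read 7.40, 6.35, 5.30 and 5.33 in HSPC, 7.17, 7.86, 7.91 and 7.06 in MEG and 6.72, 6.47, 6.38 and 6.41 in ERY. HSPC array 1 lay inside the MEG range and arrays 2, 3 and 4 below every MEG and ERY array. MEG was above HSPC by 1.41 ± 0.40 (adjusted P = 0.0153), but by 0.63 (adjusted P = 0.183) without HSPC arrays 3 and 4 and by 2.19 without HSPC arrays 1 and 2, and the call was also lost without HSPC replicate 3 and without MEG arrays 1 and 3 (1.36, adjusted P = 0.0634).

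Oasl2, of the 2'-5' oligoadenylate synthetase family, read 7.07, 7.32, 7.14 and 6.71 in HSPC, 6.36, 7.72, 8.94 and 7.65 in MEG and 6.04, 6.49, 6.17 and 6.28 in ERY. MEG array 1 lay within ERY while the other 3 were above all ERY arrays. It was called higher in MEG than in ERY (1.42 ± 0.40, adjusted P = 0.017), and without MEG replicate 3 the difference was 1.0 and no longer past 2-fold. Its relatives Oas1a and Oas2, which activate RNase L, and the RNA editor Adar were not called in any comparison, with differences between populations of -0.83 to 1.0 on the log2 scale.

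**Figure D2:**
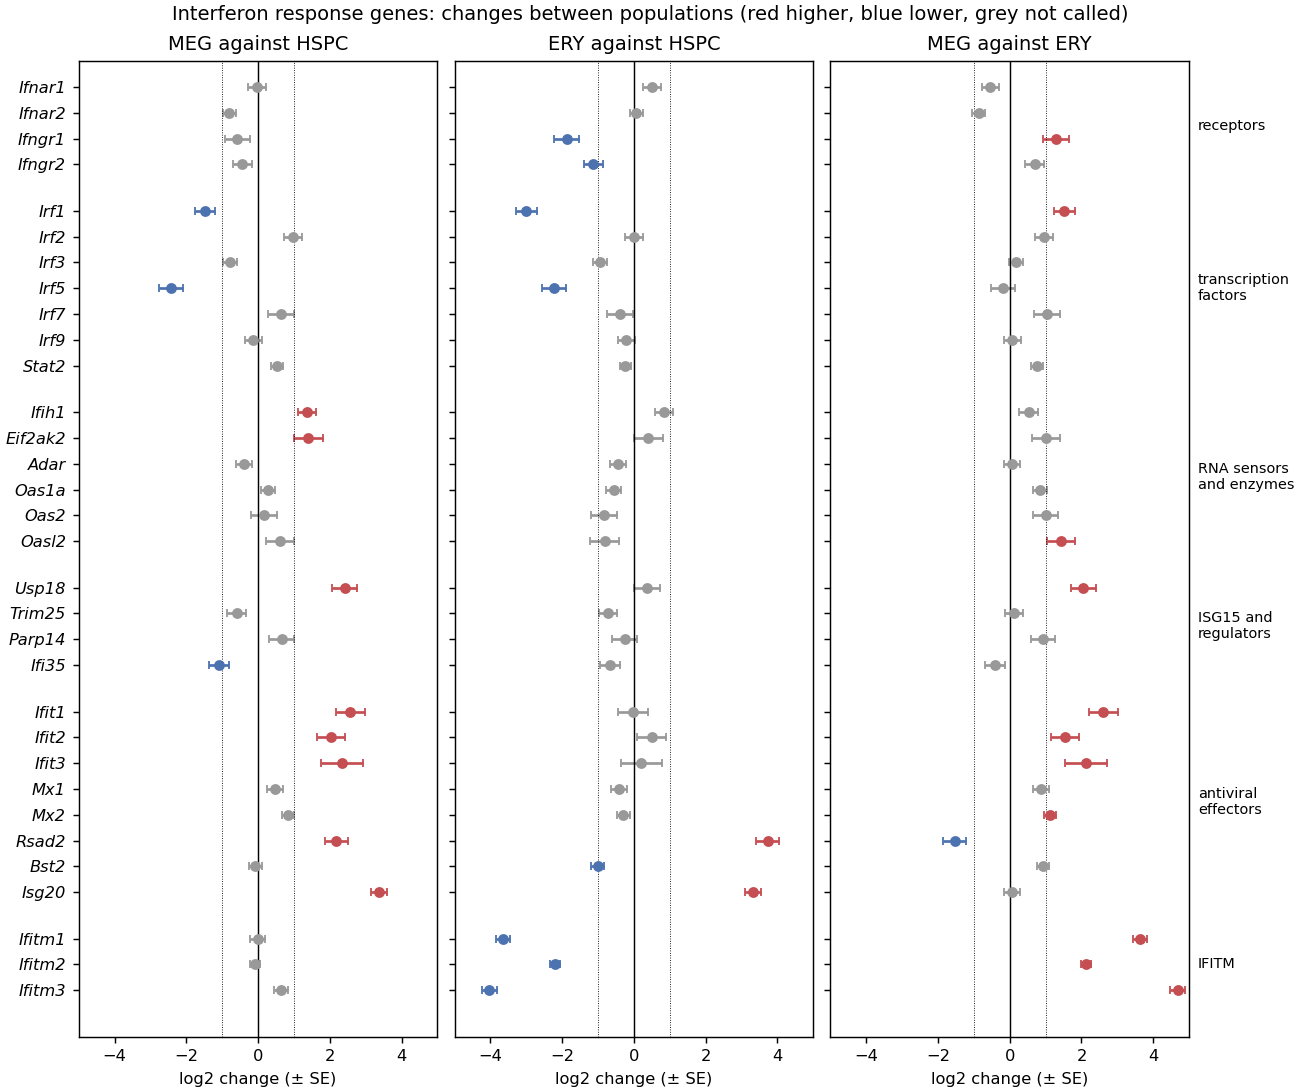
Difference of each of the 32 measured genes in each of the 3 comparisons (horizontal axis, log2 scale; points with bars for ± SE), grouped by role, in red where called higher, blue where called lower and grey where not called, with dotted lines at 2-fold. The IFITM genes lie inside 2-fold between MEG and HSPC and beyond it in both comparisons with ERY, while Isg20 lies at 0.06 between MEG and ERY.

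Of the genes that control ISG15 and interferon signals, Usp18 had the clearest difference. Usp18, the protease that removes ISG15 from its targets and that also blocks signalling at IFNAR2, read 6.91, 7.31, 7.11 and 7.26 in HSPC, 8.22, 10.37, 10.06 and 9.60 in MEG and 7.67, 7.47, 7.41 and 7.50 in ERY. Every MEG array lay above every other array. MEG was above HSPC by 2.42 ± 0.35, a 5.34-fold difference (adjusted P = 0.00022), and above ERY by 2.05 ± 0.35, or 4.14-fold (adjusted P = 0.00067). ERY and HSPC differed by 0.37 ± 0.35 (adjusted P = 0.498).

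Ifi35, an interferon-induced leucine zipper protein, went the other way and read 8.07, 8.75, 9.35 and 9.51 in HSPC, 7.70, 7.99, 8.15 and 7.50 in MEG and 8.02, 8.48, 8.20 and 8.34 in ERY. It was lower in MEG than in HSPC by 1.08 ± 0.27 (adjusted P = 0.00852), with HSPC array 1 inside the MEG range. The call was lost without HSPC replicate 3, without HSPC replicate 4 and without MEG replicate 4, and the difference was -0.57 (adjusted P = 0.108) without HSPC arrays 3 and 4. Trim25, the ubiquitin ligase that activates RIG-I, ranged from 7.40 to 9.03 over the 12 arrays and Parp14, an ADP-ribosyltransferase, from 6.16 to 8.10, and neither was called.

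The IFIT genes, whose proteins bind viral RNA and block its translation, were at or near background in HSPC and ERY and well above it on most MEG arrays. Ifit1 read 5.38, 5.36, 5.09 and 5.27 in HSPC, 6.34, 8.93, 8.45 and 7.69 in MEG and 5.07, 5.47, 5.12 and 5.31 in ERY. All HSPC and ERY arrays were below the background limit, and all MEG arrays above it. MEG exceeded HSPC by 2.58 ± 0.41, or 5.97-fold (adjusted P = 0.00043), and ERY by 2.61 ± 0.41 (adjusted P = 0.00036), and with low values raised to the limit both differences were 1.92.

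Ifit2 read 6.45, 5.87, 5.08 and 5.07 in HSPC, 6.72, 7.87, 8.61 and 7.42 in MEG and 6.40, 5.60, 6.20 and 6.24 in ERY. Its MEG arrays lay above all others, by 2.04 ± 0.39 over HSPC (adjusted P = 0.00151) and by 1.55 ± 0.39 over ERY (adjusted P = 0.0103). Its HSPC mean of 5.62 was below the limit, and the difference from HSPC was 1.60 with low values raised to it. Ifit3 read 5.01, 4.88, 4.60 and 4.39 in HSPC, 4.81, 7.31, 8.60 and 7.51 in MEG and 5.02, 5.08, 4.85 and 4.75 in ERY. MEG array 1 was at background with HSPC and ERY, and the other 3 MEG arrays were not. The difference from HSPC was 2.34 ± 0.58 (adjusted P = 0.00721; 2.11, adjusted P = 0.0703, without HSPC arrays 3 and 4) and from ERY 2.13 ± 0.58 (adjusted P = 0.0149), or 1.41 over either with low values raised to the limit. Ifit2, Ifit3 and Ifit1 lie in 1 cluster on the same chromosome, and Ifit3 has a close copy, Ifit3b, whose signal may be counted with it.

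Rsad2 and Isg20 were the effectors that both differentiated populations held above HSPC. Rsad2, which encodes viperin, an enzyme that makes a chain-ending nucleotide, read 5.48, 5.49, 6.02 and 6.06 in HSPC, 7.06, 8.23, 8.82 and 7.68 in MEG and 9.91, 9.66, 9.13 and 9.25 in ERY. The populations did not overlap, and here ERY was highest. MEG exceeded HSPC by 2.19 ± 0.33 (adjusted P = 0.00025), ERY exceeded HSPC by 3.73 ± 0.33, or 13.2-fold (adjusted P = 2.7e-06), and MEG was below ERY by 1.54 on the log2 scale (SE 0.33, adjusted P = 0.00312). The HSPC mean of 5.76 was below the background limit, and with low values raised to the limit the differences from HSPC were 1.96 in MEG and 3.50 in ERY, both called.

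Isg20, a 3' to 5' exonuclease of single-stranded RNA, read 7.97, 8.03, 7.92 and 7.62 in HSPC, 10.60, 11.54, 11.62 and 11.31 in MEG and 11.64, 11.08, 11.02 and 11.08 in ERY. Every array of MEG and ERY lay more than 2 above every HSPC array on the log2 scale. The differences from HSPC were 3.38 ± 0.22 in MEG, or 10.4-fold (adjusted P = 4.2e-07), and 3.32 ± 0.22 in ERY (adjusted P = 2.7e-07), and MEG and ERY differed by 0.06 ± 0.22 (adjusted P = 0.888). Isg20 and Rsad2 kept both calls against HSPC under all 28 alternative settings.

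The remaining effectors differed less. Bst2, which encodes tetherin, the surface protein that holds budding virus to the cell, read 7.57, 7.72, 8.08 and 8.33 in HSPC, 7.83, 7.65, 8.15 and 7.76 in MEG and 6.88, 6.87, 6.81 and 7.11 in ERY. All ERY arrays were below all others, and the difference from HSPC of -1.01 ± 0.18 (adjusted P = 0.00069) lay just past 2-fold, so that it was lost in 5 of the settings that leave out 1 array (-0.87 at the weakest: HSPC replicates 3 and 4 and ERY replicates 1, 2 and 3). Mx1 and Mx2, dynamin-like GTPases that block viral entry and replication, had means below the background limit in all 3 populations. Mx1 ranged from 4.62 to 6.28 over the arrays and was not called. Mx2 read 4.49, 4.53, 4.08 and 4.50 in HSPC, 4.86, 5.70, 5.20 and 5.15 in MEG and 4.12, 4.09, 3.99 and 4.22 in ERY. Its MEG values were above all others and were called above ERY (1.12 ± 0.17, adjusted P = 0.00029; 0.97 without MEG replicate 2), but every value of Mx2 was under the limit.

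Ifitm3 gave the largest difference of the 32 genes, and all 3 IFITM genes were called lower in ERY than in either other population. These small membrane proteins hold entering virus at the endosome, and Ifitm1 and Ifitm3 are also known from early germ cells. Ifitm1 read 11.22, 11.63, 11.99 and 12.05 in HSPC, 11.51, 11.57, 11.84 and 11.91 in MEG and 7.97, 7.84, 8.08 and 8.43 in ERY. HSPC and MEG overlapped fully and ERY lay more than 2 below both, by 3.64 on the log2 scale from HSPC (SE 0.20, 12.5-fold, adjusted P = 4e-08) and by 3.63 from MEG (SE 0.20, adjusted P = 2.6e-08).

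Ifitm2 read 11.72, 12.23, 12.28 and 12.34 in HSPC, 12.11, 12.01, 12.10 and 12.03 in MEG and 9.88, 9.98, 10.02 and 9.89 in ERY. Its loss in ERY was the smallest of the family, 2.20 ± 0.14 below HSPC, a 4.59-fold difference (adjusted P = 1.7e-07), and it stayed well above background there. Ifitm3 read 11.18, 11.63, 11.58 and 11.46 in HSPC, 11.76, 12.26, 12.26 and 12.13 in MEG and 7.17, 8.05, 7.18 and 7.31 in ERY. ERY lay below HSPC by 4.03 ± 0.20, or 16.4-fold (adjusted P = 2.4e-08), and below MEG by 4.68 ± 0.20, or 25.6-fold (adjusted P = 3.8e-09).

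Between MEG and HSPC the family moved little. Ifitm1 differed by -0.01 ± 0.20 (adjusted P = 0.965), Ifitm2 by -0.08 ± 0.14 (adjusted P = 0.699) and Ifitm3 by 0.64 ± 0.20 (adjusted P = 0.0279, inside 2-fold). The 3 genes are neighbours in the genome, in the order Ifitm2, Ifitm1 and Ifitm3. The second probe set of Ifitm1 gave means of 10.73, 10.74 and 6.56 in HSPC, MEG and ERY, and the other probe sets of Ifitm2 gave 11.98, 11.98 and 10.16, and 12.13, 11.92 and 9.79, in the same order. These paralogs are alike in sequence, and how far their probe sets share signal was not tested. All 6 IFITM calls were kept in all 28 alternative settings.

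The MEG arrays differed among themselves in these genes more than the other arrays did. The median standard deviation of the 32 genes was 0.50 in MEG, 0.27 in HSPC and 0.18 in ERY, against medians over all genes of 0.28, 0.26 and 0.145. Array 1 had the lowest value of the 4 MEG arrays in 20 of the 32 genes (62.5%, against 29.2% of the genes above the background limit), and array 3 the highest in 21 (65.6%, against 32.5%). The median deviation of the 32 genes from their MEG mean was -0.40 on array 1, 0.03 on array 2, 0.48 on array 3 and -0.08 on array 4.

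Markers of other cell types were also uneven over the MEG arrays. Macrophage markers summed to 12.96, 12.70, 14.03 and 13.45 on arrays 1 to 4, with ranges of 12.46 to 12.92 in HSPC and 12.26 to 13.18 in ERY, and of 16 listed genes 12 lay above the background limit in MEG, 14 in HSPC and 15 in ERY. Single macrophage genes did not all follow that sum: in ERY against HSPC 8 of the 16 were called higher and 1 lower, with a median difference of 1.36, and the part of such cells in the ERY levels of Rsad2 and Isg20 was not tested. The defining macrophage genes Adgre1 (7.28, 8.23, 10.34 and 8.98) and Csf1r (7.58, 8.41, 10.54 and 9.51), were highest on array 3, and Cd163 was below the limit in all populations. Neutrophil and monocyte markers summed to 9.53, 10.46, 12.59 and 10.16 on the same arrays. Of 13 measured genes, 13 had a mean above the limit in MEG, 10 in HSPC and 7 in ERY. In MEG against HSPC 0 of them were called higher and 6 lower. Plasmacytoid dendritic cell markers, a list that includes Bst2 itself, summed to 10.19, 9.92, 10.62 and 10.25 with Siglech below the limit, against 11.49 to 11.65 in HSPC. Array 3 was thus the highest MEG array both for interferon response genes and for these 3 marker lists. It was also the highest for lymphoid (10.45), erythroid (11.27) and hepatocyte (11.14) markers, but not for megakaryocyte, HSPC or endothelial markers. Macrophage and plasmacytoid dendritic cell markers were lowest on array 2, whereas interferon response genes were most often lowest on array 1. The part of other cells in the levels was not tested.

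MEG arrays 1 and 3 were most often the lowest and the highest in these same genes, so calls kept without them are no independent support. With MEG arrays 1 and 3 left out, Usp18 was above HSPC by 2.84, Ifit1 by 3.03, Ifit2 by 2.03, Ifit3 by 2.69, Rsad2 by 2.20 and Isg20 by 3.54, all of them called. In that setting 8 genes were higher and 4 lower than in HSPC, as Mx2 (1.03) and, on the lower side, Ifnar2 (-1.05) passed 2-fold and Eif2ak2 did not pass the test.

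**Figure D3:**
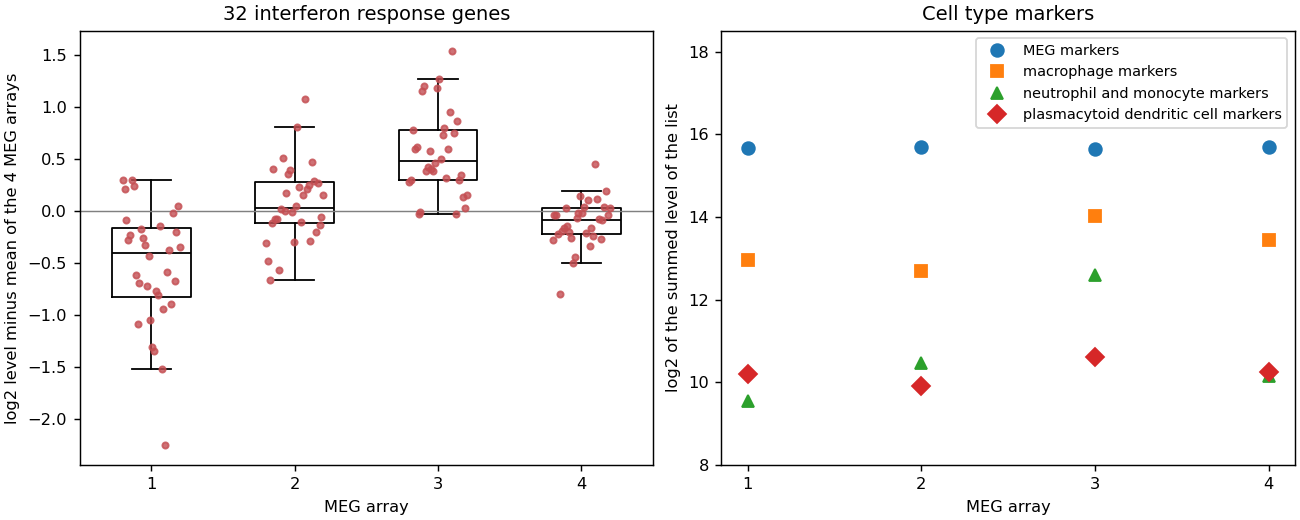
Left, deviation of each of the 32 measured genes from its mean over the 4 MEG arrays (log2 scale), 1 point per gene, with boxes for the median and quartiles. Right, log2 of the summed level of 4 marker lists on the same arrays. Array 1 has a median deviation of -0.40 and array 3 one of 0.48, and macrophage and neutrophil and monocyte markers peak on array 3 at 14.03 and 12.59.

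Promoter letters and calls were set side by side as a description. Among the 11 measured genes with an ISRE match in their window, 5 were called higher in MEG than in HSPC (Ifih1, Eif2ak2, Ifit1, Ifit3 and Rsad2) and 0 lower, with a median difference of 0.97. Among the 16 with a window but no match, 2 were called higher (Ifit2 and Isg20) and 3 lower (Irf1, Irf5 and Ifi35), with a median of -0.41. Against HSPC in ERY the same groups gave 1 higher and 3 lower, and 1 higher and 5 lower. The IFITM genes show that a match did not go with one direction: Ifitm2, with the match printed above, and Ifitm3, with matches 3 and 20 bases after its start site, were called lower in ERY, as was Ifitm1, in whose window these letters were not found, whereas Rsad2 with its match was called higher.

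**Figure D4:**
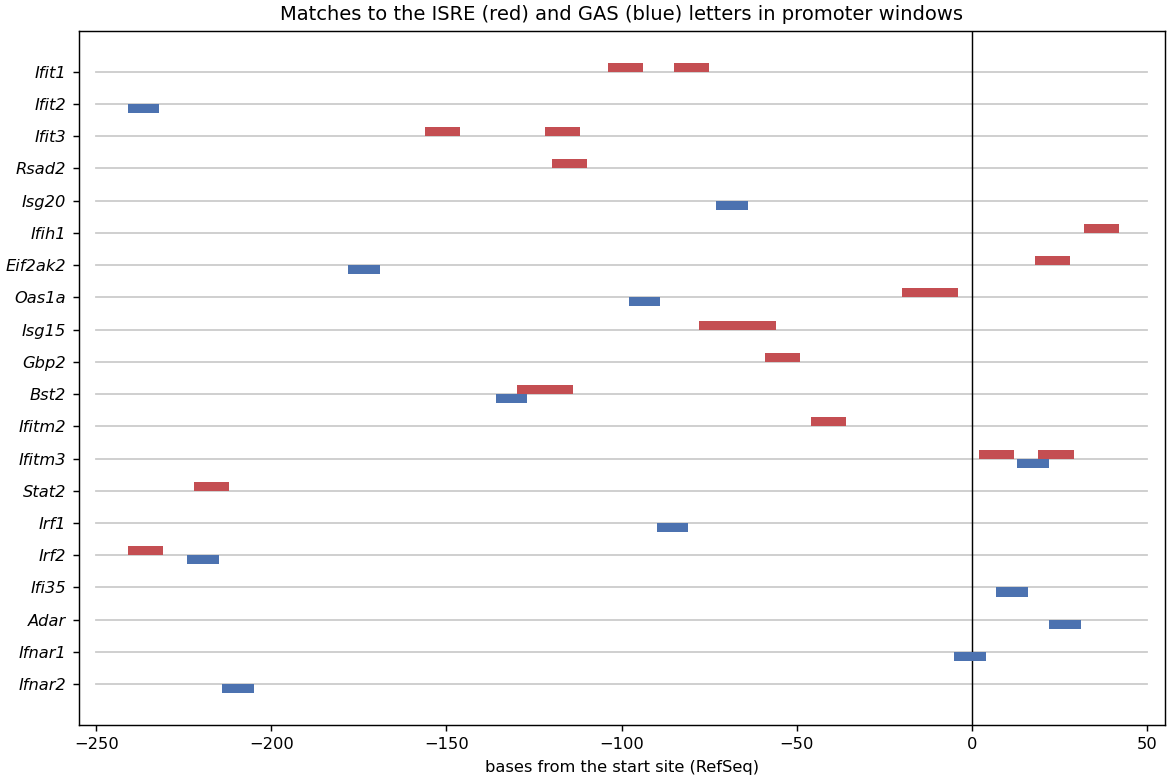
Position of ISRE matches (red) and GAS matches (blue) in the RefSeq promoter windows of the 20 genes that hold either, in bases from the start site. The ISRE matches of Ifit1, Ifit3 and Rsad2 begin between 156 and 85 bases before the start site.

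The interferons themselves were near background. Of 21 listed ligand genes 15 were measured, 2 of them with a mean above the limit (Ifnl2 at 7.52 in HSPC, 7.72 in MEG and 7.49 in ERY, and Ifna5 at 7.12, 7.33 and 7.52), and none was called in any comparison. Ifnb1 had means of 4.24, 4.31 and 4.22, and Ifng had 5.76, 5.33 and 5.41, in the same order.

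The wider pathway was read from 97 further genes, of which 85 were measured. In MEG against HSPC 17 were called higher and 10 lower, in ERY against HSPC 9 and 20, and in MEG against ERY 25 and 5, where 20.2%, 20.6% and 16.5% of all genes were called. These were 31.8%, 34.1% and 35.3% of the 85. Of the genes above the background limit 31.7%, 33.1% and 26.1% were called. By mean over all arrays only 63 of the 85 lay above that limit, so these last shares are not on a like basis. Among 12 measured receptor and signalling genes, Jak2, the kinase of the gamma and cytokine receptors, was higher than in HSPC by 2.92 in MEG (adjusted P = 9.8e-04) and by 2.88 in ERY, though its HSPC arrays ran from 9.19 down to 5.87. Irf8, a myeloid factor, was lower in MEG by 2.17 ± 0.28 (adjusted P = 1.0e-04) and in ERY by 2.78 ± 0.28 (adjusted P = 1.0e-05). Tyk2, the kinase that serves IFNAR1, was lower in ERY than in HSPC by 2.08 (adjusted P = 2.8e-04) and higher in MEG than in ERY by 1.5.

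Among the 16 measured sensors and adaptors, Ddx58, which encodes RIG-I, read 7.72, 7.51, 6.65 and 6.45 in HSPC, 9.39, 9.61, 9.71 and 9.04 in MEG and 6.28, 6.52, 6.20 and 6.25 in ERY. The MEG arrays were above all others, by 2.35 ± 0.26 over HSPC (adjusted P = 3.1e-05) and by 3.12 over ERY (adjusted P = 1.5e-06). Sting1, the adaptor for DNA sensing, read 10.86, 11.03, 11.31 and 11.26 in HSPC, 5.61, 6.08, 7.82 and 6.25 in MEG and 6.04, 6.40, 6.12 and 6.24 in ERY. It was lower than in HSPC by 4.68 ± 0.36 in MEG (adjusted P = 1.5e-06) and by 4.92 in ERY (adjusted P = 6.2e-07), and as with Irf5 its highest MEG value lay on array 3. Of the 16 genes, 1 (Ddx58) was called higher and 2 lower in MEG than in HSPC, or 18.8% where 20.2% of all genes were called.

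The largest list, 57 measured interferon-induced genes, had 13 called higher and 5 lower in MEG against HSPC, 5 and 12 in ERY against HSPC and 20 and 5 in MEG against ERY. The called shares were 31.6%, 29.8% and 43.9%, where 20.2%, 20.6% and 16.5% of all genes were called. Of the genes above the background limit 31.7%, 33.1% and 26.1% were called. By mean over all arrays only 41 of the 57 lay above that limit, so these last shares are not on a like basis. Gbp4, a guanylate-binding protein, was higher in MEG than in HSPC by 2.43 (adjusted P = 5.4e-06), and Ifi30, a thiol reductase of the lysosome, was lower by 3.23. Uba7, the activating enzyme for ISG15, was higher than in HSPC by 2.05 in MEG (adjusted P = 5.3e-05) and by 1.55 in ERY (adjusted P = 3.3e-04). Ube2l6, the conjugating enzyme for ISG15, read 7.98, 8.29, 8.56 and 8.44 in HSPC, 9.32, 9.84, 9.89 and 8.90 in MEG and 12.46, 12.53, 12.28 and 12.37 in ERY. It followed the order seen for Rsad2, with ERY above HSPC by 4.10 ± 0.21 (adjusted P = 2.8e-08) and MEG below ERY by 2.92 (adjusted P = 3.6e-07). Ube2l6 was also called higher in MEG than in HSPC, by 1.17 (adjusted P = 9.7e-04). Uba7 and Ube2l6 were thus above HSPC in both differentiated populations, while the ISG15 protease gene Usp18 was called above HSPC in MEG and not in ERY.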

How the data were processed

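Total RNA of 12 samples was hybridised to Affymetrix Mouse Gene 1.0 ST arrays. The authors deposited log2 values made with RMA (version not given in the sources used here), which corrects background, normalises between arrays and summarises probes, so shared shifts between populations are removed. Array medians were 5.99 to 6.25. Depth does not apply, and the number of arrays limits the precision. Of 34760 probe sets, 21640 had 1 gene symbol, 1321 several and 11799 none in the platform annotation. Per gene the probe set with the highest mean was kept (19937 genes). Differences were fitted with limma 3.58.1 (R 4.3.3), 1 mean per population over all 12 arrays, with no filter on low values, and called past 2-fold at an FDR of 5%. Every listed gene is accounted for: those called in at least 1 of 3 comparisons are given by array, the others by range, mean or difference. For the other pathway lists, up to 3 genes each way with the largest called differences were drawn, and only some of these are named. The genes, lists and tests were chosen with earlier results of these data known. Promoters came from RefSeq (GRCm38.p6). Alternatives changed arrays, filter, scaling, probe sets, variance model and threshold. The limma fit was tested on simulated data, and counts and figures were made with Python 3.11.15.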

Additional observations from a re-analysis of the deposited data

Results flagged for a closer look

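Within the 4 arrays of a population, 3 of 96 gene and population groups had 1 array whose gap to its nearest neighbour, over the whole range of the group, was above Dixon's 95% critical value for 4 samples, where chance gives about 1 in 20 groups. Mx2 on HSPC array 3 was 4.08 against 4.49, 4.50 and 4.53, all below the background limit. Isg20 on ERY array 1 was 11.64 against 11.02, 11.08 and 11.08. Ifitm3 on ERY array 2 was 8.05 against 7.17, 7.18 and 7.31.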

How the results depend on the processing

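No call of the 32 interferon response genes turned its direction in any alternative. Counts are given as main value and then alternative, higher before lower. Centring each array on ribosomal protein genes, which moved the median of all genes from -0.02 to 0.54 in MEG against HSPC, from 0.03 to 0.44 in ERY against HSPC and from -0.02 to 0.14 in MEG against ERY, gave 16 and 1 in MEG against HSPC (8 and 3) and 17 higher in MEG than in ERY (11), and it split the calls over all genes 4180 to 944 (1748 to 2270), 2841 to 1440 (1664 to 2447) and 2094 to 1284 (1744 to 1549); the median of the 32 genes became 0.93 in MEG against HSPC and 0.01 in ERY against HSPC. A test against 2-fold itself (treat) left 4 and 1 in MEG against HSPC, 5 lower in ERY than in HSPC (8) and 4 and 0 in MEG against ERY (11 and 1). At 1.5-fold 5 were lower in MEG than in HSPC and 2 lower than in ERY, and at an FDR of 1% 7 were higher in MEG than in ERY. Without HSPC arrays 1 and 2, 4 were higher in ERY than in HSPC (2), and without MEG arrays 1 and 3, 2 were lower in MEG than in ERY. Array weights gave 5 and 2 for the same counts. The cause of these shifts was not tested beyond the changed threshold or arrays themselves. Leaving out each array in turn gave 7 to 10 higher and 2 to 3 lower in MEG than in HSPC, 2 to 3 and 7 to 8 in ERY against HSPC, and 10 to 15 and 1 to 1 in MEG against ERY. No label says whether the replicate numbers pair the arrays. Of 12 same-numbered pairs 4 correlated above 0.1, which with 4 arrays per population cannot decide it. With the replicate number as a block the counts were 8 and 3, 2 and 8, and 12 and 1. Mean signals below the background limit of 5.93 limit what can be said of Mx1 and Mx2 in all populations, of Ifit1 and Ifit3 in HSPC and ERY, of Ifit2 and Rsad2 in HSPC and of Irf1 in ERY.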
